A study of Mus musculus with 8 samples.

Results

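The 6 conventional actin genes of the mouse were examined in the left ventricle (LV) of angiotensin II (angII) treated mice by RNA sequencing. The members were the rows named Acta1, Actc1, Acta2, Actg2, Actb and Actg1 in a count table of 46040 genes. All 6 were among the 13542 genes that passed the filter on low counts (1 CPM or more in no fewer than 2 of the 8 libraries). CPM is the count scaled to a common library size, and normalized CPM, the unit of level used throughout, takes the TMM-adjusted library size. The family was chosen because Acta1 was known to differ between the genotypes, so its genotype difference is given as a description and the other 5 members are reported beside it.

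The groups were 4 littermate control mice and 4 VEGFR-1 TK-/- mice, which lack the intracellular tyrosine kinase domain of VEGFR-1 (the product of Flt1), a receptor for VEGF-A and VEGF-B. According to the labels and the study's methods, all 8 were male mice of strain C57BL/6, 5 to 7 months old, that received angII by osmotic minipump at 0.1 mg/kg/h, and whole LV tissue was taken at day 14 from animals that had survived the infusion. Control mice thus carried the same angII load, and no library without angII was analysed here. The deletion is a germline one and not limited to a cell type. Libraries were grouped by the genotype tag and the library name, which match each other. The sample titles give the opposite genotype for all 8 libraries, and the sign of every fold change below reverses if the titles are right. Hence the names control-tagged and VEGFR-1 TK-/- tagged for the groups. The library names also contain the word cardiomyo although the source is given as LV tissue, and the labels describe rRNA depletion where the study's methods describe poly-A selection.

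Actins are the proteins of the thin and cytoskeletal filaments, and the isoforms differ in only a few residues, most of them near the N-terminus. Actc1 encodes cardiac alpha-actin, the main actin of adult cardiac sarcomeres, and Acta1 encodes skeletal alpha-actin, which is expressed in the fetal heart and is a classical marker of the fetal gene programme that reappears during cardiac hypertrophy. Acta2 and Actg2 encode the smooth muscle actins of vascular and visceral muscle, and Acta2 is also found in pericytes and myofibroblasts. Actb and Actg1 encode the cytoplasmic actins present in every cell.

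The isoform genes are similar enough that the count of each depends on whether reads can be told apart, so the first 90 coding bases of each are shown, since it encodes the N-terminus of each protein. They are read from the GENCODE M21 transcripts, 5′ to 3′ on the minus strand of GRCm38, on which all 6 genes lie, and each stretch falls within a single coding exon. Capitals mark bases that differ from Acta1 after alignment.
Acta1 (chr8:123893608-123893697): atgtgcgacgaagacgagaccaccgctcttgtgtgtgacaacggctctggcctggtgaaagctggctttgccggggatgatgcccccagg
Actc1 (chr2:114051942-114052031): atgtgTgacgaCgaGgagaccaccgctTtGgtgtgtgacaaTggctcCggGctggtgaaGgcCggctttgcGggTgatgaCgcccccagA
Acta2 (chr19:34252464-34252553): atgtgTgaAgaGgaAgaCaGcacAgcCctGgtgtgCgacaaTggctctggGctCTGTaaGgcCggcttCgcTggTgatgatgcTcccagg
Actg2 (chr6:83527352-83527441): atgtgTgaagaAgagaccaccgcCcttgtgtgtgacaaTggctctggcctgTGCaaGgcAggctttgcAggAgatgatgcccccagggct
Actb (chr5:142905597-142905686): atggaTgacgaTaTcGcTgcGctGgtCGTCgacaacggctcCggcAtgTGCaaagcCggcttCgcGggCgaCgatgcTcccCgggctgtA
Actg1 (chr11:120348002-120348091): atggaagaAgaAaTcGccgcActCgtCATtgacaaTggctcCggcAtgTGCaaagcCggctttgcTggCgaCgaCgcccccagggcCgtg
Within this stretch 14 bases of Actc1 differed from Acta1, against 22 in Acta2, 11 in Actg2, 24 in Actb and 21 in Actg1. Actg2 lacked 3 bases of Acta1 and both cytoplasmic genes lacked 6. Over the whole coding sequence (377 codons in Acta1, Actc1 and Acta2, 376 in Actg2, 375 in Actb and Actg1, without the stop) Acta1 and Actc1 were identical at 86.3% of aligned bases. The highest identity was 88.6%, between Actb and Actg1, and the lowest was 82.0%, between Actg1 and each of Actc1 and Acta2.

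At the length of the reads, 100 bases, no window of the main Acta1, Actc1, Acta2 or Actg2 transcript occurred exactly in a transcript of another gene. Allowing 4 mismatches, 0.1% of windows of the main Acta1 transcript matched that of Actc1 and 3.5% matched that of Actb. The cytoplasmic genes were less distinct. For Actb, 1.10% of windows were shared with Lrrc58 and the pseudogene Gm15725, and for Actg1 51.05% of windows were shared with processed copies, chiefly Gm12715 and Gm8399. Those rows held few reads, with 6 to 15 counts per library for Gm12715 and 0 to 10 for Gm8399, against 2346 to 6912 for Actg1. Whether reads aligned to several places were counted is not given in the sources used here, so the level of Actg1 is the least certain of the 6. No exon base of an isoform was shared with a gene on the opposite strand, while on the same strand Actg1 shared 83 exon bases with Gm23419 and 64 with Mir6935.

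By GENCODE M21, Acta1 lies at chr8:123891769-123894751 and Actc1 at chr2:114047282-114053548, each with 7 exons in the main transcript. Acta2 lies at chr19:34241090-34255590 and Actg2 at chr6:83512905-83536265, each with 9 exons. Actb lies at chr5:142903115-142906754 and Actg1 at chr11:120345690-120348542, each with 6 exons. The 2 sarcomeric genes have in common a CArG box just upstream of the RefSeq start. The CArG box (CC and GG flanking 6 bases that are each A or T, a motif that reads alike on both strands) is the binding sequence of serum response factor. The 100 bases that end 21 bases before the RefSeq start of Acta1 and of Actc1 (GRCm38.p6, minus strand, 5′ to 3′) are shown with the CArG box in capitals, because Acta1 and Actc1 are the pair whose balance the values turn on.
Acta1 (chr8:123894796-123894895): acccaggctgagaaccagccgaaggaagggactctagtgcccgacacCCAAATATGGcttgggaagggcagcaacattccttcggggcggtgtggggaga
Actc1 (chr2:114052896-114052995): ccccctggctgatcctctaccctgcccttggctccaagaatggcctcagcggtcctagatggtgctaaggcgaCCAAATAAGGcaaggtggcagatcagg
The box lay 73 to 64 bases before the start of Acta1 and 47 to 38 bases before the start of Actc1. Promoters of 4 of the 6 isoforms were found in the RefSeq table. Actg1 had a box 90 to 81 bases before its start. No exact match to the motif lay in the 250 bases before the start of Acta2. Only exact matches were searched, so sites that differ from the motif were not counted. In all, 482 of 32851 promoters (1.47%) held an exact match in those 250 bases. A match is a description of the sequence only.

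The deposited libraries held 11449137 to 16239670 counts, TMM factors ran from 0.917 to 1.12, and within-group pairs of libraries had chi-square values of 6.77 to 49.9 per degree of freedom (sampling noise alone gives 1), so no library was a copy of another. The p-values below measure the spread between these libraries. Flt1, the targeted gene, measured 56.9 to 84.3 normalized CPM in the control-tagged and 144 to 170 in VEGFR-1 TK-/- tagged libraries, with a log2 fold change of 1.19 (SE 0.12). Its false discovery rate (FDR, a p adjusted by Benjamini-Hochberg across the whole table) was 0.00808 in the edgeR quasi-likelihood test, and it was the single gene called. Counts of the whole gene do not show the deleted exons, so Flt1 is no check of the labels here. Of the cardiomyocyte markers, all 10 passed the filter, and their sum was 60600 to 94200 normalized CPM in control-tagged and 76700 to 101000 in VEGFR-1 TK-/- tagged libraries, with 2 higher at an unadjusted p under 0.05, beside 3.32% of all genes (Myh6, mean 30200, was the highest member). The defining markers of skeletal muscle were at or near 0: their 12 genes summed to 4.43 to 6.12 and 5.45 to 5.77 normalized CPM, with Myh2, Myh4 and Myf6 at 0 counts in all 8 libraries and Mylpf the highest (mean 1.29). Control-tagged replicate 3 had the highest level of its group in 5 of the 6 isoforms, all but Acta1, and VEGFR-1 TK-/- tagged replicate 2 had the lowest of its group in Acta2, Actb and Actg1.

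Acta1, skeletal alpha-actin, was the isoform whose groups were separate. Control-tagged replicates 1 to 4 had 4102, 6958, 4893 and 3125 normalized CPM, and the VEGFR-1 TK-/- tagged replicates had 1582, 1854, 1456 and 1811. The lowest control-tagged library exceeded the highest library of the other group, and control-tagged replicate 2 stood highest. The group means were 4770 ± 1630 and 1676 ± 189 (SD, n = 4 each). On the fitted scale Acta1 was 2.85-fold lower in the VEGFR-1 TK-/- tagged group, a log2 fold change of -1.51 (SE 0.22).

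In the fit of all genes (edgeR quasi-likelihood test, called at an FDR under 0.1 with a difference of about 1.5-fold or more either way) Acta1 had an FDR of 0.152 and was not called, while 1 of 13542 genes (0.00738%) was. Only 1 gene had a smaller unadjusted p. Of the 1710 genes with a mean above 100 normalized CPM, 0 had a lower log2 fold change than Acta1, and over all genes 14 did. These places in the table led to the choice of the family and support nothing further. The call depended on the test: the likelihood ratio test of edgeR gave Acta1 an FDR of 2.85e-08 among 53 calls (0.391% of genes, 0.303% lower in the VEGFR-1 TK-/- tagged group), and DESeq2 gave 1.53e-09 among 32 (0.236%). Leaving out control-tagged replicate 2, the highest library, gave a log2 fold change of -1.27 and an FDR of 0.0507. Leaving out control-tagged replicate 4, the lowest of its group, gave -1.67 and 0.0455, so that Acta1 was called when either of these libraries was left out, while with each of the other 6 left out its FDR was up to 0.753 and it was not called.

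**Figure D1:**
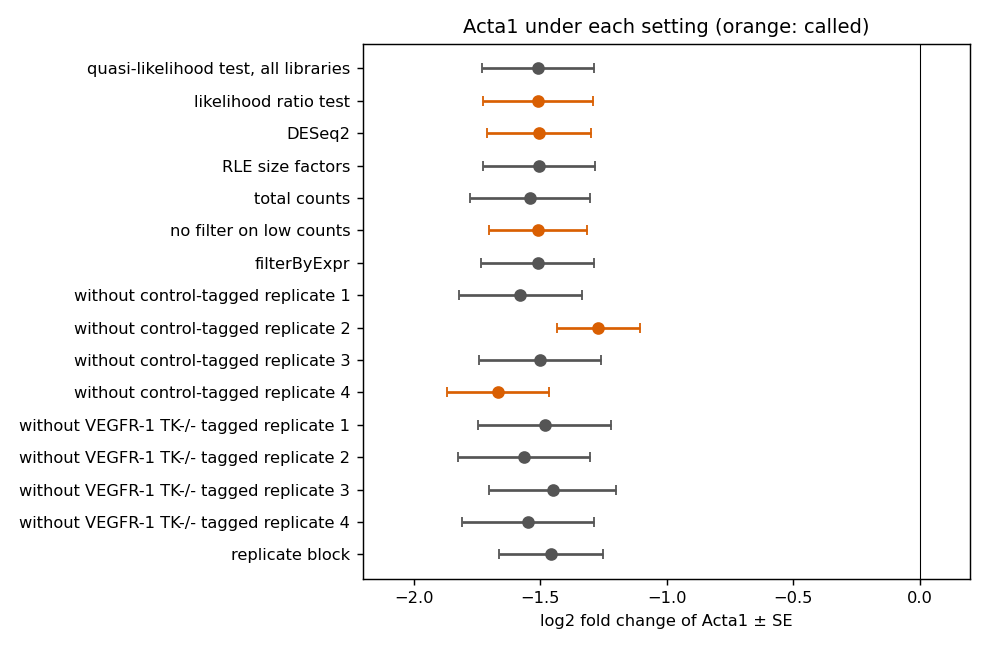
Log2 fold change of Acta1 (VEGFR-1 TK-/- tagged over control-tagged, horizontal axis) with its SE for each test, normalization, filter and library left out (vertical axis), with orange points where Acta1 passed both thresholds. The values lie between -1.67 and -1.27 in all 15 alternatives, and Acta1 was called in 5 of them.

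Beside Acta1, some vascular and immune cell markers had lower levels with the VEGFR-1 TK-/- tag, although none was called and the sum of each list overlapped between the groups. The 6 pericyte markers summed to 1120 to 1620 normalized CPM in control-tagged and 830 to 1140 in VEGFR-1 TK-/- tagged libraries, and 5 of the 6 were lower at an unadjusted p under 0.05, beside 5.64% of all genes, with Rgs5 the highest member (mean 696). Kcnj8, Cspg4 and Pdgfrb did not overlap between the groups, as did 2.53% of all genes in that direction. The 6 endothelial markers, led by Cdh5 (385), summed to 1140 to 1460 and 1030 to 1180, with 3 lower, and the 7 leukocyte markers, led by Lyz2 (220), summed to 338 to 450 and 229 to 343, with 2 lower. Control-tagged replicate 2, the highest in Acta1, had the highest pericyte sum of all 8 libraries (1620) and the lowest cardiomyocyte sum (60600). It also had the highest fibroblast (1990), activated fibroblast (365), leukocyte (450) and erythroid (766) sums and the lowest smooth muscle sum (553), so pericytes were not alone. The part of these markers in the Acta1 difference was not tested. In bulk tissue, fewer cells of a type and less RNA per cell cannot be told apart.

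Actc1, cardiac alpha-actin, differed far less than Acta1. Control-tagged replicates 1 to 4 had 19870, 13930, 24280 and 17140 normalized CPM, and VEGFR-1 TK-/- tagged replicates had 17140, 17520, 17540 and 18450. The control-tagged libraries spread on both sides of the VEGFR-1 TK-/- tagged libraries, which lay close together. The means were 18800 ± 4380 and 17660 ± 560 (SD, n = 4), with a log2 fold change of -0.09 (SE 0.20, FDR 0.921). The SD of log2 Actc1 was 0.34 in the control-tagged and 0.045 in the VEGFR-1 TK-/- tagged group, at percentiles 76.5 and 3.23 of all genes. Control-tagged replicate 2, the lowest in Actc1, was the highest in Acta1, but Acta1 and Actc1 showed no common order over the 8 libraries (Pearson r = 0.02, and -0.29 after removing group means, a description over n = 8).

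**Figure D2:**
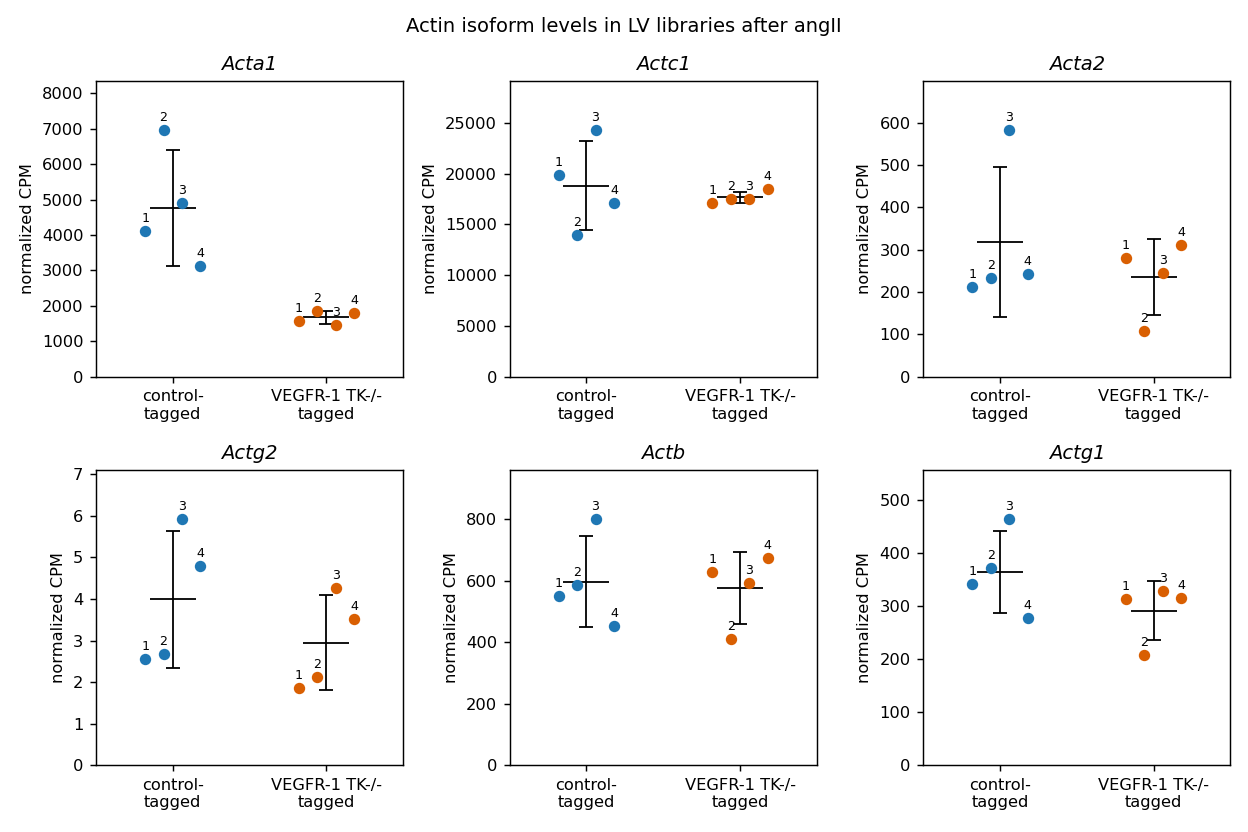
Normalized CPM of each actin isoform (vertical axes, linear from 0) in the control-tagged (blue) and VEGFR-1 TK-/- tagged (orange) libraries, with replicate numbers at the points and the mean ± SD of 4 libraries in black. The groups are separate in Acta1, 3125 and above against 1854 and below, and overlap in the other 5 isoforms.

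The balance of the sarcomeric pair was expressed as Acta1 per Actc1, each as counts per kb of exon (1536 and 1618 bases). It was 21.8%, 52.6%, 21.2% and 19.2% in control-tagged replicates 1 to 4 and 9.73%, 11.1%, 8.75% and 10.3% in those of the VEGFR-1 TK-/- tagged group. The groups did not overlap, and control-tagged replicate 2 alone was near 1 Acta1 transcript for every 2 of Actc1. The means were 28.7% ± 16 and 9.99% ± 1.01 (SD, n = 4). The difference in the log2 ratio was -1.39 (SE 0.35), and between -1.54 and -1.06 with each library left out in turn. The summed sarcomeric actins were 20270 to 29170 normalized CPM in control-tagged (mean 23570 ± 4070) and 18720 to 20270 in VEGFR-1 TK-/- tagged libraries (19340 ± 675, SD, n = 4 each). The groups met only at 20270, and the other 3 control-tagged libraries lay above all 4 of the other group.

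Actin took 2.48% ± 0.287 of all counts in control-tagged and 2.04% ± 0.139 in VEGFR-1 TK-/- tagged libraries (SD, n = 4), with ranges of 2.14% to 2.84% and 1.89% to 2.22%. Within the summed actin counts, the share of Acta1 was 16.4%, 31.5%, 15.8% and 14.7% in control-tagged replicates 1 to 4 and 7.94%, 9.22%, 7.22% and 8.40% in those of the VEGFR-1 TK-/- tagged group. The share of Actc1 was 79.2%, 63.1%, 78.3% and 80.7% in the former and 85.9%, 87.2%, 87.0% and 85.6% in the latter. The groups were separate for both isoforms and in opposite directions, as shares of a single sum must trade off. The mean shares were 19.6% ± 7.98 and 8.19% ± 0.839 for Acta1, and 75.3% ± 8.21 and 86.4% ± 0.782 for Actc1 (SD, n = 4). Counting error was small beside this spread, since the widest 95% Wilson interval of a single library was 0.330 percentage points for Acta1 and 0.343 for Actc1. Without control-tagged replicate 2 the difference in the Acta1 share shrank from -11.4 to -7.42 percentage points.

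**Figure D3:**
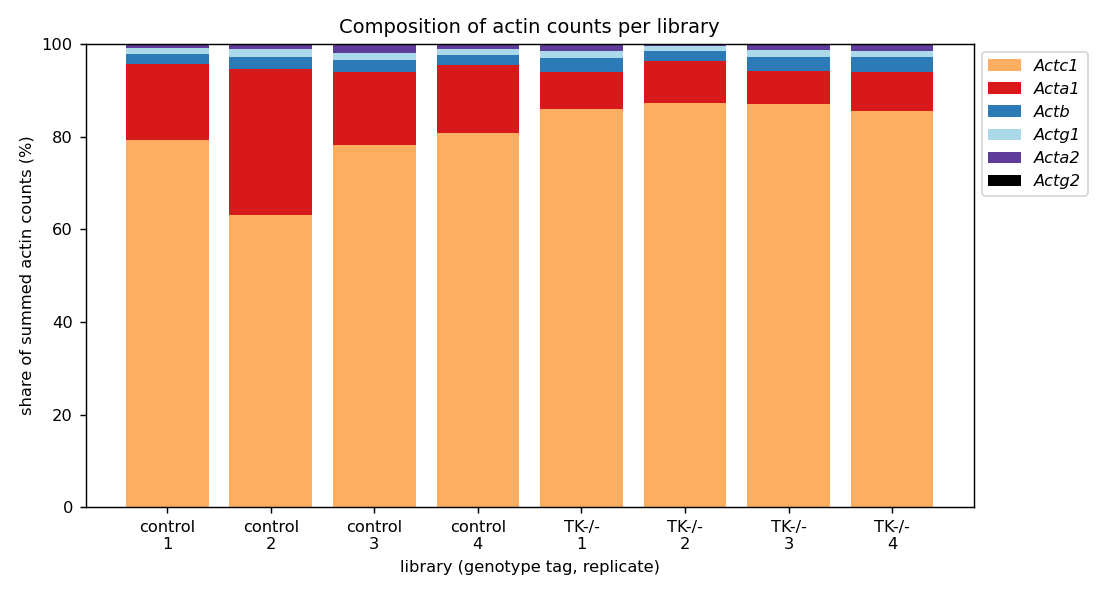
Share of the summed actin counts (%, vertical axis from 0) taken by each of the 6 isoforms in each library (horizontal axis). Actc1 fills 63.1% to 80.7% of the control-tagged bars and 85.6% to 87.2% of the VEGFR-1 TK-/- tagged bars, and the Acta1 segment is widest in control-tagged replicate 2.

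The other 4 isoforms made up the rest. Actb had a share of 2.39% ± 0.264 in control-tagged and 2.81% ± 0.526 in VEGFR-1 TK-/- tagged libraries, and Actg1 had 1.47% ± 0.167 and 1.43% ± 0.271. Acta2 had 1.23% ± 0.449 and 1.15% ± 0.421, and Actg2 had 0.0160% ± 0.00583 and 0.0144% ± 0.00544 (SD, n = 4 each). None of these shares separated the groups. Per kb of exon, the share of Acta1 was 20.8% ± 8.37 and 8.76% ± 0.863, and that of Actc1 75.9% ± 8.49 and 87.8% ± 0.609, close to the shares of counts.

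Levels were compared between isoforms as normalized CPM per kb of exon, here called the length-scaled level. Actc1 ranked 1 of 13526 genes in 6 libraries and 2 in VEGFR-1 TK-/- tagged replicates 2 and 3. Acta1 ranked 3 to 11 in control-tagged libraries and 26 to 44 in VEGFR-1 TK-/- tagged libraries. The length-scaled means were 11620 ± 2710 and 10920 ± 346 for Actc1 and 3105 ± 1060 and 1091 ± 123 for Acta1 (SD, n = 4). Actb followed with 222.9 ± 54.8 and 214.9 ± 43.3. Actg1 (137.3 ± 29.1 and 109.9 ± 21.2) and Acta2 (144.5 ± 80.5 and 107.4 ± 40.8) lay near each other, with Acta2 the higher in 4 of the 8 libraries. Their order depended on the length used. Per kb of the main transcript, Actg1 had mean shares of the actin sum of 1.117% and 1.091%, and Acta2 had 0.898% and 0.842%. On that scale Acta2 was the higher only in control-tagged replicate 3. Actg2 came last at 2.56 ± 1.06 and 1.89 ± 0.731, ranked between 6979 and 10484.

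Acta2, smooth muscle alpha-actin, was the most variable of the 6 isoforms on the log2 scale. Control-tagged replicates 1 to 4 had 210.7, 233.7, 581.8 and 243.1 normalized CPM, and VEGFR-1 TK-/- tagged replicates had 280.3, 107.2, 245.6 and 310.1. Control-tagged replicate 3 stood far above the rest of its group, VEGFR-1 TK-/- tagged replicate 2 was the lowest library, and the groups overlapped. The means were 317.3 ± 177 and 235.8 ± 89.7 (SD, n = 4), with a log2 fold change of -0.43 (SE 0.36, FDR 0.751). Its SD on the log2 scale was 0.68 and 0.70, at percentiles 97.0 and 97.3 of all genes. The direction rested on control-tagged replicate 3, since the log2 fold change was 0.04 without it. The sum of the 8 smooth muscle markers, led by Smtn (mean 239), varied less than Acta2. They summed to 553 to 716 normalized CPM in control-tagged and 612 to 752 in VEGFR-1 TK-/- tagged libraries, and none had an unadjusted p under 0.05. In control-tagged replicate 3 Myh11, the smooth muscle myosin heavy chain, had 79.7 normalized CPM and Tagln (transgelin) had 78.8, against 52.3 to 80.8 and 54.9 to 73.8 in the other libraries of its group. In VEGFR-1 TK-/- tagged replicate 2, the lowest in Acta2, Myh11 (54.2), Tagln (54.6), Mylk (31.2) and Lmod1 (5.95) were also the lowest of their group. Cnn1 (9.68), Smtn (242), Myocd (32.3) and Synpo2 (211) were not. The marker sum of that library (642) was above that of replicate 1 (612).

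Actg2, smooth muscle gamma-actin of visceral muscle, was near the lower limit of detection. Its raw counts were 34, 37, 88 and 60 in control-tagged and 23, 24, 54 and 44 in VEGFR-1 TK-/- tagged libraries. The groups overlapped, and replicates 1 and 2 were the low libraries of both groups. The means were 3.99 ± 1.65 and 2.94 ± 1.14 normalized CPM (SD, n = 4), with a log2 fold change of -0.43 (SE 0.34, FDR 0.732).

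Actb, cytoplasmic beta-actin, often used as a reference gene in heart tissue, had 551.5, 584.8, 800.4 and 451.6 normalized CPM in control-tagged and 627, 409.1, 593.1 and 674.2 in VEGFR-1 TK-/- tagged replicates 1 to 4. The groups overlapped, with the highest library in the control-tagged group and the lowest in the other. The means were 597 ± 147 and 575.9 ± 116 (SD, n = 4), with a log2 fold change of -0.05 (SE 0.19, FDR 0.954), and the highest library of the control-tagged group was 1.77 times its lowest. The sign turned with 0.12 when control-tagged replicate 3 was left out and with 0.08 when VEGFR-1 TK-/- tagged replicate 2 was left out. Actg1, cytoplasmic gamma-actin, had 342.9, 372.9, 464.9 and 278.9 in control-tagged and 313.8, 208.3, 329.9 and 316.5 in VEGFR-1 TK-/- tagged replicates. Control-tagged replicate 4 and all 4 VEGFR-1 TK-/- tagged libraries were below the other 3 control-tagged libraries, but the groups overlapped. The means were 364.9 ± 77.3 and 292.1 ± 56.3 (SD, n = 4), with a log2 fold change of -0.32 (SE 0.17, FDR 0.616).

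**Figure D4:**
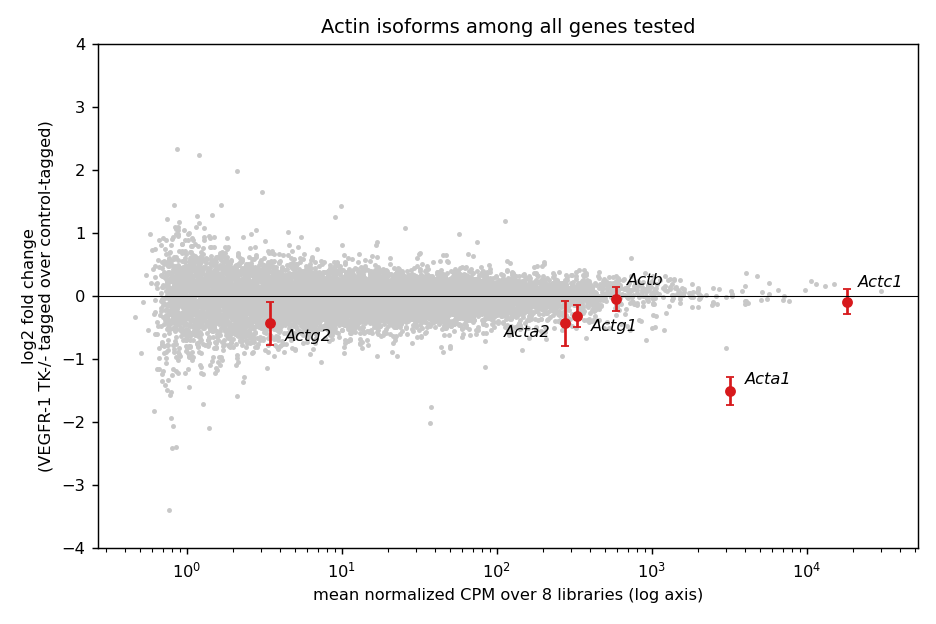
Log2 fold change (VEGFR-1 TK-/- tagged over control-tagged, vertical axis) against mean normalized CPM over 8 libraries (horizontal log axis) for the 13542 genes tested in grey and the 6 isoforms in red with the SE. Acta1 at -1.51 lies below every other gene of over 100 normalized CPM, while the other isoforms lie between -0.43 and -0.05.

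All 6 log2 fold changes were below 0, as were 50.3% of those of all genes tested. The groups did not overlap with the VEGFR-1 TK-/- tagged group lower in 1 isoform, Acta1, against 2.53% of all genes, and with that group higher in 0 isoforms, against 2.46%. The median absolute log2 fold change over all genes was 0.128, and 3.60% of genes reached the 1.5-fold limit of a call, which Acta1 alone of the isoforms did.

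The cytoplasmic isoforms moved together within each group, with r = 0.97 after removing group means and 0.87 with them (Pearson, n = 8, a description over libraries of different depth). Their ranks over the 8 libraries went together less closely, with a Spearman's rho of 0.57. Their ratio was therefore steadier than either level. Actb over Actg1 per kb of exon was 1.60, 1.56, 1.71 and 1.61 in control-tagged and 1.98, 1.95, 1.78 and 2.11 in VEGFR-1 TK-/- tagged replicates 1 to 4. The ratio was higher in all 4 VEGFR-1 TK-/- tagged libraries than in any control-tagged library, although the levels of both genes overlapped. The means were 1.62 ± 0.0649 and 1.96 ± 0.136 (SD, n = 4), the log2 ratio differed by 0.27 (SE 0.06), and with each library left out in turn the difference was 0.24 to 0.32. This ratio was singled out after its values were seen and was not tested, and the near copies of Actg1 named above limit its level.

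**Figure D5:**
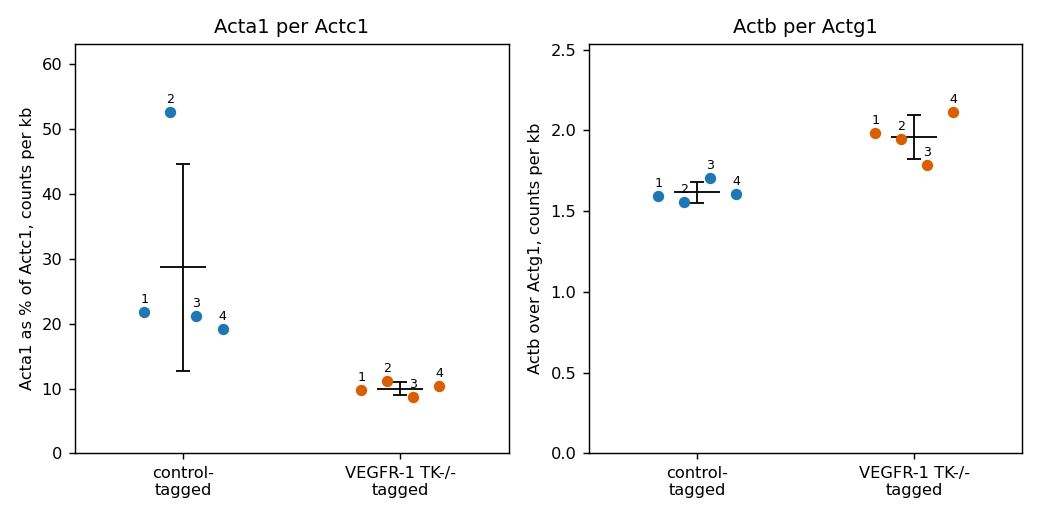
Acta1 as a percentage of Actc1 (left) and Actb over Actg1 (right), both from counts per kb of exon on axes from 0, in each library, with replicate numbers and the mean ± SD of 4 libraries. The groups are separate in both ratios, with VEGFR-1 TK-/- tagged libraries at 8.75% to 11.1% on the left and 1.78 to 2.11 on the right.

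Acta2 varied with the cytoplasmic isoforms, with r = 0.89 to Actb and 0.87 to Actg1 over the 8 libraries (Spearman's rho 0.93 and 0.36), and with r = 0.92 and 0.87 after removing group means. Acta2 and Actg2 had r = 0.64. Acta1 had r between 0.02 and 0.56 with the other isoforms. The genes whose log2 levels were most like Acta1 over the 8 libraries were Heyl, a transcriptional repressor of the Notch pathway (r = 0.981, and 0.95 after removing group means), Galnt10, a glycosyltransferase (0.967, and 0.798), and the basement membrane protein gene Nid2 (0.961, and 0.852). Their own log2 fold changes were -0.37, -0.36 and -0.61. Most like Actc1 were Anp32a (r = 0.973), Wdr61 (0.969) and Dhx30 (0.969), and most like Acta2 were Gm37206 (0.973), the noncoding RNA Gas5 (0.952) and Flna, the actin crosslinker filamin A (0.946). Genes much like Actg1 included 1810011H11Rik (0.979) and Shisa4 (0.973). Most like Actb were Gm5602 (0.969), Epha7 (0.952) and Gm37206 (0.943), and most like Actg2 were Pdzd4 (0.976), Plcd3 (0.972) and Ewsr1 (0.964). For the isoforms other than Actg1 these are the 3 highest of all genes, in each case over n = 8 libraries. An r above 0.9 was reached by 14 genes for Actb, 33 for Acta1 and 136 for Actc1, so a high r sets no gene apart. Gm5602, Gm37206, 1810011H11Rik and Epha7 were near the floor, with means of 0.683, 1.91, 2.25 and 2.53 normalized CPM. The preparation batches of the libraries are not given in the sources used here.

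The genes that nucleate, cap, bind and fold actin and those that regulate its transcription were read from 9 lists of 143 distinct genes, of which 126 were tested, and a list of hypertrophy markers was read beside them. Of the 126, 0 were called by the quasi-likelihood test or under any alternative run. In the likelihood ratio test Arpc1b (FDR 0.0236) and Fhl1 (FDR 0.0542) passed the FDR limit. They missed a call only on the fold limit, with log2 fold changes of -0.50 and -0.54. At an unadjusted p under 0.05, 10 (7.94%) were lower and 3 (2.38%) higher, beside 5.64% and 3.32% of all genes, and the median log2 fold change was -0.08 beside -0.00119 over all genes. Genes named here for an unadjusted p were chosen after their values were seen.

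Among the nucleators, all 9 members of the Arp2/3 complex, which makes branched filaments, had a log2 fold change below 0, with a median of -0.11. Several of these lay so close to 0 that their sign says little, among them Arpc4 (-0.03) and Actr2 (-0.06). Arpc1b was the single member with a p under 0.05. Its log2 fold change was -0.50 (SE 0.11, FDR 0.442), from 142 ± 14.3 normalized CPM in the control-tagged group (SD, n = 4), and its groups did not overlap. Across the 9 lists the groups also did not overlap in Fhod1, Tln1 and Fhl1, all lower, and in Actr6, higher. Of all genes, 2.53% did not overlap in the lower and 2.46% in the higher direction. The other highly expressed members Arpc2 (-0.11) and Arpc5l (-0.0) lay closer to 0. Of 19 further nucleators 14 were tested, with a median of -0.10, and the muscle members Lmod2 (0.07), Lmod3 (-0.07) and Fhod3 (0.19) were the highest expressed, while the formin Fmnl3 had -0.38 (FDR 0.453).

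Of the 16 genes that bind monomers or turn filaments over, Twf1 (-0.31) and Coro1c (-0.38) had a p under 0.05, the median was -0.154, and the 3 most abundant were Gsn (gelsolin, -0.12), Tmsb4x (thymosin beta-4, -0.23) and the muscle cofilin gene Cfl2 (0.03). Of 10 filament end capping genes only Tmod3 (-0.28) had a p under 0.05, with a median of -0.04 and with Tmod1 (0.21), Capzb (-0.01) and Svil (-0.07) the most abundant. Thin filament partners (13 of 14 tested, median -0.116) included Tnni3, cardiac troponin I, at 0.36 with a p under 0.05 and an FDR of 0.551, and the more abundant Tnnt2 (0.24) and Tpm1 (0.09). Of the crosslinkers and anchors (16 of 17 tested, median -0.179) Actn4 (-0.27), Flnc (-0.38), Sptan1 (-0.23) and Tln1 (-0.22) had a p under 0.05, while Actn2, the sarcomeric alpha-actinin, had -0.08 and Sptbn1 -0.12.

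The chaperonin and maturation genes showed no common direction (16 tested, median 0.02), with Tcp1 at 0.12, Cct5 at -0.15 and Cct7 at -0.12, and Pfdn6 at 0.32 with a p under 0.05. Of the 25 regulators of actin gene transcription the median was 0.05 and only Fhl1, a LIM protein of the sarcomere, had a p under 0.05, with 314 ± 41.3 and 215 ± 28.7 normalized CPM (SD, n = 4) and a log2 fold change of -0.54 (SE 0.13, FDR 0.442). Srf, the gene of serum response factor, had -0.15 (SE 0.13) and its coactivator genes Mkl1, Mkl2 and Myocd had -0.22, -0.03 and 0.08. The most abundant other regulators were Fhl2 (-0.02) and Mef2d (0.12). Of the actin-related proteins 7 of 17 were tested (median -0.01), with Actr6 at 0.37 and a p under 0.05 and with Actr1a (-0.01), Actr1b (-0.23) and Actr10 (0.12) the most abundant.

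The 10 hypertrophy markers, with which Acta1 is usually read, had a median log2 fold change of -0.45. None was called by the quasi-likelihood test, while Ctgf and Ankrd1 were called by the likelihood ratio test, by DESeq2 and with no filter on low counts. Of all genes, 0.391%, 0.236% and 23 of 22597 were called in these settings. Ankrd1, a stretch-responsive titin-binding protein gene, had 3860 ± 554 and 2180 ± 584 normalized CPM (SD, n = 4) and a log2 fold change of -0.82 (SE 0.19, FDR 0.442). Ctgf, a matricellular protein gene, had -0.95 (SE 0.25, FDR 0.442) and Rcan1, a calcineurin target, -0.51 (SE 0.22, FDR 0.539). Together with Fhl1 these were the 4 of 10 with a p under 0.05, all in the lower direction, beside 5.64% of all genes. The natriuretic peptide genes Nppa (-0.31, SE 0.27) and Nppb (-0.42, SE 0.27) and the fetal myosin gene Myh7 (0.13, SE 0.48) had FDRs of 0.762, 0.677 and 0.954, and Myh6 (0.07) and Atp2a2 (0.15) were close to 0.

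The summed markers of the remaining cell types overlapped between the groups. The 6 fibroblast markers, led by Col3a1 (mean 527), summed to 1230 to 1990 and 641 to 1640 normalized CPM, and the 4 activated fibroblast markers, led by Postn (180), to 146 to 365 and 45.7 to 301, with 1, Fap, lower at an unadjusted p under 0.05 and not overlapping between groups. Control-tagged replicate 3, the highest in Acta2, had the lowest activated fibroblast sum of its group. Atrial markers, led by Nppa (1020), summed to 795 to 1320 and 506 to 1440, and erythroid markers, led by Hbb-bs (265), to 309 to 766 and 359 to 601.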

How the data were processed

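Gene counts of 8 LV libraries were taken as deposited. Per the labels and the study's methods, the authors trimmed paired reads with Trim Galore 0.4.4, aligned them to GRCm38 with STAR 2.5.4b and counted them with featureCounts against GENCODE M16. The aligner discarded reads above a set number of alignments. The strand setting, and whether the remaining reads with several alignments were counted, are not given in the sources used here. The deposited values are raw counts, and 0 columns were left unused.

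Genes with at least 1 CPM in at least 2 libraries (13542) were TMM-normalized and fitted without covariates by edgeR 4.0.16 (R 4.3.3, quasi-likelihood test), with Benjamini-Hochberg adjustment over all of them. Genes were called at an FDR under 0.1 if they differed by about 1.5-fold or more, the study's thresholds. The fit was tested on simulated data. Results were also computed with DESeq2 1.42.0, the likelihood ratio test, other normalizations, filters and thresholds, the replicate number as a block, and each library left out. Shares per kb of the main transcript, and for the partner lists DESeq2, no filter and leaving out the hypertrophy markers, were added after seeing the data. Exon lengths and coding sequences came from GENCODE M21 and promoters from RefSeq (GRCm38.p6), both of the same genome build as the files. 849 gene IDs had no M21 exon length and were not ranked per kb.

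The members and lists were chosen with earlier results of these data known. Named genes were the 6 isoforms, the 3 most abundant members and any called member of each partner list, the highest member of each marker list, and the 3 genes most like each isoform by Pearson's r of log2 normalized CPM. For Actg1, 1 of these 3 is not reported here. Diaph1, Diaph2 and Diaph3 of the nucleator list were not analysed here. Interval bounds cover counting error only.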

Additional observations from a re-analysis of the deposited data

Results flagged for a closer look

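In 30 groups of 4 libraries, a library was picked out where its gap to the nearest other library exceeded the Dixon limit for 4 values, which chance does in about 1 of 20 groups. 5 values were picked out. Control-tagged replicate 2 accounted for 3 of them, with an Acta1 share of the actin counts of 31.5%, an Actc1 share of 63.1% and Acta1 at 52.6% of Actc1 per kb. These are not independent, since they come from the same counts. The Acta2 level of control-tagged replicate 3 was high at 582 normalized CPM. The Actg1 level of VEGFR-1 TK-/- tagged replicate 2 was low at 208 normalized CPM.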

How the results depend on the processing

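The log2 fold change of Acta1 kept its direction in all 15 alternatives. It was called with the likelihood ratio test (-1.51, FDR 2.85e-08), DESeq2 (-1.51, 1.53e-09) and no filter on low counts (-1.51, 0.000539), and with single libraries left out it was between -1.67 and -1.27. Its FDR ran from 1.53e-09 to 0.753. Genes called over the whole table numbered 1, against 53 with the likelihood ratio test, 32 with DESeq2 and 23 with no filter, and were 1 to 3 with single libraries left out (2 without control-tagged replicate 1, 3 without replicate 2 or replicate 4). Of the 10 lists read beside the isoforms, 2 genes, the hypertrophy markers Ctgf and Ankrd1, were called with the likelihood ratio test, 2 with DESeq2 and 2 with no filter, and 0 with any single library left out. With single libraries left out, Actc1 ranged from -0.21 to 0.05, Acta2 from -0.59 to 0.04 and Actb from -0.16 to 0.12. Without control-tagged replicate 3, Actc1 was at 0.05, Acta2 at 0.04 and Actb at 0.12, and without VEGFR-1 TK-/- tagged replicate 2 Actb was at 0.08. None of these was called, and the cause was not tested. Same-numbered libraries correlated at -0.029, 0.029, 0.343 and -0.055 in their deviations from the group means. Differently numbered pairs ran from -0.494 to 0.302. No pairing by number was evident, though so few values cannot exclude it. With the replicate block Acta1 was at -1.46 (FDR 0.164) and 1 gene was called. The lowest counts behind an isoform were those of Actg2, 23 to 88 per library.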
